A study of Mus musculus with 10 samples.

Results

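Levels of 10 genes were followed across 5 genotypes of embryonic mouse brain: Rec8, Mcmdc2, Akr1c19, Gstm6, Ero1b, Gpr137b, Metap1d, Lyrm7, Crb1 and Tmem267. They are 10 of the 28059 genes listed in the files, and all 10 passed the filter on low counts that left 18671 genes for testing. The genes were chosen from these same libraries, for large steps in level between genotypes that were taken not to follow the deleted factors. The differences between genotypes that chose them are therefore given as a description, with no p-value. Differences of this kind have been likened to those between inbred strains. The labels give no strain or cross and no sequence variants were analysed here, so a strain origin was not tested.

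Polyadenylated RNA of whole brains without olfactory bulbs, taken at stage E18.5, was sequenced in 10 libraries, 2 for each genotype. The control was heterozygous for COP1, a substrate receptor of a ubiquitin ligase. The KO lacked COP1, the DKO lacked COP1 and cJun, the TKO lacked COP1, cJun and ETV1, and the QKO lacked COP1, cJun, ETV1 and ETV5. All 4 knockout genotypes thus shared the loss of COP1, and the last 3 shared the loss of cJun. ETV1 and ETV5 are transcription factors of the ETS family and cJun is a subunit of AP-1. Which promoter drove any Cre recombinase, and the litter, sex or pooling of the animals, is not given in the sources used here. Since nothing says that both libraries of a genotype came from separate animals, errors and p-values cover the spread between libraries only, and part of it may be technical.

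Library totals ranged from 31996944 to 54594523 counts, and 3 counts corresponded to 0.055 to 0.0938 CPM (counts scaled by library size), a bound on counting error only. Control 1 and DKO 1 stood apart by the X-inactivation RNA Xist, at 1840 and 1464 CPM against 0.924 to 1.94 CPM in the other 8 libraries. Jun stood at 15.0 to 16.1 nRPKM in control and KO and at 1.44 to 2.94 nRPKM in the genotypes labelled as lacking it. The summed level of Cop1 over the whole gene was 4.74 to 5.0 nRPKM in control and 3.57 to 4.40 nRPKM elsewhere, a sum that does not check the loss of an exon. Etv1 and Etv5, counted over the whole gene, stood at 4.71 and 4.38 nRPKM and at 3.97 and 4.11 nRPKM in QKO, so these sums do not check their deletions either. Neuronal markers summed to between 2064 and 2315 nRPKM and radial glia markers to between 650 and 785 nRPKM in every library. Erythroid markers summed to 413 to 518 nRPKM in DKO and to 137 to 280 nRPKM in the other genotypes, and their part in the levels of DKO was not tested. Levels below are deposited nRPKM, reads per kilobase scaled to library depth with size factors, as the mean ± SD of 2 libraries.

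The 10 genes do not belong to 1 pathway. Rec8 and Mcmdc2 act in meiosis, where Rec8 is the kleisin subunit that closes the cohesin ring around sister chromatids and Mcmdc2 is a helicase-like protein needed for recombination. Akr1c19 and Gstm6 belong to families of cytosolic enzymes, the aldo-keto reductases that convert steroids and other carbonyl compounds, and the mu-class transferases that attach glutathione to reactive molecules. Ero1b is an oxidase that recharges protein disulfide isomerase in the endoplasmic reticulum, and Gpr137b is a lysosomal membrane protein linked to the Rag GTPases that bring mTORC1 to the lysosome. Metap1d removes the starting methionine from mitochondrial proteins, and Lyrm7 is a chaperone of the Rieske iron-sulfur protein of respiratory complex III. Crb1 is a Crumbs protein of apical cell polarity, best known from the retina, and Tmem267 encodes a transmembrane protein.

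To ask which libraries share a state, the 10 values of log2 CPM of each gene were sorted and the libraries were split at the widest gap between neighbouring values. Of the 10 genes, 4, Gpr137b, Metap1d, Lyrm7 and Crb1, were split in 1 way, with both QKO libraries low and the other 8 high. QKO is also the only genotype labelled as lacking ETV5, so for these 4 genes the low state coincides with 1 deleted factor, and the deletion and any other difference of the QKO brains cannot be told apart. Akr1c19 was low in DKO and TKO, and Gstm6 was high in those same 4 libraries. Rec8 was high in TKO, and Ero1b was high in KO and QKO. Tmem267 was high in control 1, DKO and QKO and low in control 2, KO and TKO. Mcmdc2 was split by KO 1 alone, which was the lowest library.

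For 8 of the 10 genes both libraries of every genotype lay on the same side of the gap. The exceptions were Tmem267, whose control libraries fell on opposite sides, and Mcmdc2, whose KO libraries did. The gap of Mcmdc2 lies between 2 counts in KO 1 and 8 in KO 2, whose 95% exact Poisson intervals overlap. Of all 18671 genes tested, 5.68% had no genotype split in this way, as had 13.5% of the 215 genes whose gap was at least 1 on the log2 scale. Among those 215 genes, 1 (0.465%) had the QKO libraries alone low and 6 (2.79%) had them alone high. Gpr137b, Metap1d, Lyrm7 and Crb1 had narrower gaps, and the share of all genes tested with their split is not reported here. A gap of at least 1 was found in 3 of the 10 genes, Akr1c19 (1.41), Rec8 (1.38) and Mcmdc2 (1.56), and in 1.15% of all genes tested. Since the steps chose the genes, nothing is read from these shares. The gaps of the other 7 genes were between 0.54 and 0.86, so that "on" and "off" describes few of them: Gpr137b, for example, never fell below 2.93 nRPKM.

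**Figure D1:**
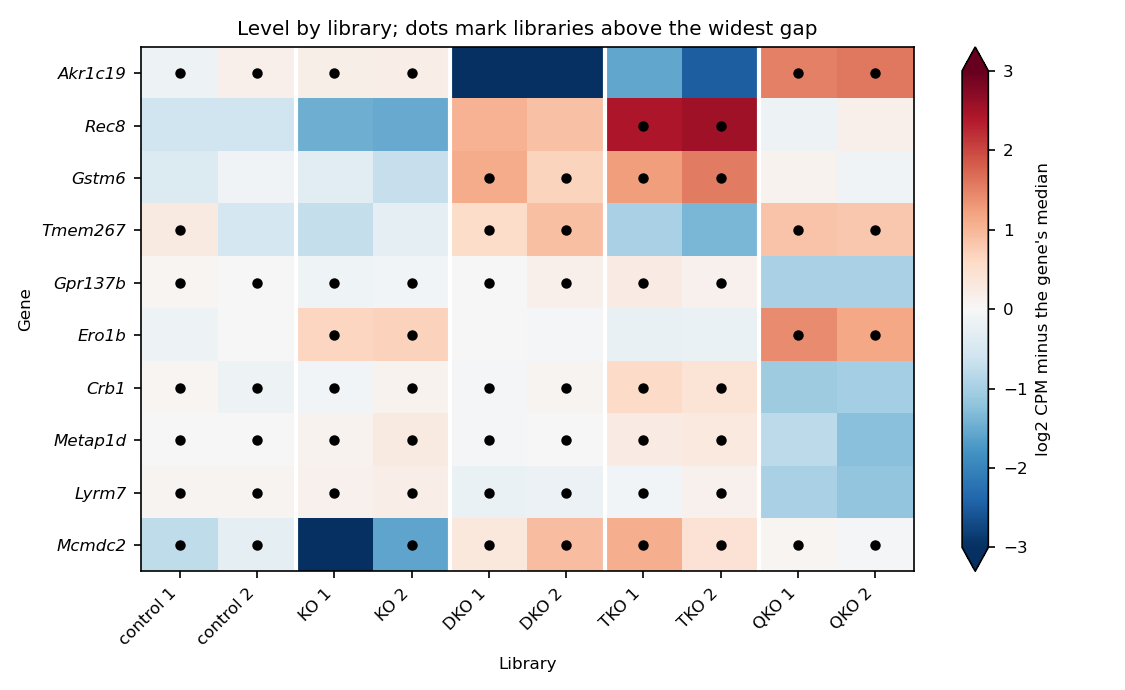
Each row is a gene and each column a library; colour gives log2 CPM minus the gene's median over 10 libraries, with the scale ending at its labelled limits, and dots mark the libraries above the widest gap. Gpr137b, Metap1d, Lyrm7 and Crb1 have both QKO libraries on the low side, and only Tmem267 and Mcmdc2 have a genotype with 1 library on each side.

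Rec8 stood at 0.0624 and 0.0620 nRPKM in control, 0.0246 and 0.0227 in KO, 0.239 and 0.211 in DKO, 0.658 and 0.718 in TKO, and 0.0934 and 0.119 in QKO. The TKO libraries were the highest and the KO libraries the lowest, and no genotype overlapped another. The counts behind these levels were small: 3 and 2 in KO, where the 95% exact Poisson interval of 2 counts runs from 0.242 to 7.22, and 60 and 55 in TKO. Such intervals cover counting error only. Group means were 0.0622 ± 0.00031 in control, 0.0236 ± 0.00136 in KO, 0.225 ± 0.0199 in DKO, 0.688 ± 0.0422 in TKO and 0.106 ± 0.0181 in QKO. The fitted log2 fold change was 3.18 ± 0.43 (SE) from KO to DKO, 1.60 ± 0.26 from DKO to TKO and -2.68 ± 0.29 from TKO to QKO. The level was thus higher in DKO and TKO and low again in QKO, which lacks the same factors and ETV5. The part of any deletion in these levels was not tested. QKO differed from control by 0.76 ± 0.42.

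Mcmdc2, the other meiotic gene, also had few reads. Its levels were 0.142 and 0.207 nRPKM in control, 0.0131 and 0.0727 in KO, 0.315 and 0.496 in DKO, 0.554 and 0.345 in TKO, and 0.262 and 0.243 in QKO. Both KO libraries lay below all others, with 2 and 8 counts, and DKO and TKO overlapped. The 95% exact Poisson intervals of the 2 KO counts, 0.242 to 7.22 and 3.45 to 15.8, overlap. The log2 fold change was -2.13 ± 0.61 from control to KO and 3.32 ± 0.54 from KO to DKO. The first of these was -1.24 without KO 1 and -3.62 without KO 2, and the second was 2.44 without KO 1 and 4.81 without KO 2, so the size of the drop rested on which KO library was used. In the exon models of GENCODE M21, 127 of the 5916 exon bases of Mcmdc2 (2.15%) overlap Snhg6, a host RNA of small nucleolar RNAs on the opposite strand. Whether the deposited counts use strand is not given in the sources used here, so reads over these bases cannot be told apart. Snhg6 stood at 19.4 to 22.9 nRPKM in KO and at 38.5 to 40.5 in DKO, and was higher in DKO by 0.89 ± 0.11 (edgeR quasi-likelihood test, adjusted p = 0.00398). Its part in the level of Mcmdc2 was not tested.

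Other germ cell and meiosis markers were measured beside these genes. The 9 markers Ddx4, Dazl, Sycp1, Sycp3, Stra8, Spo11, Dmc1, Tex101 and Hormad1 summed to between 3.27 and 5.16 nRPKM in all 10 libraries, between 4.57 and 5.11 in TKO, where Rec8 was highest, and between 3.27 and 4.6 in DKO. The sum includes Sycp1, at 0.0131 and 0.00777 nRPKM in TKO and at 0.180 to 0.984 in control and KO. It therefore does not show how the other markers compare between these genotypes. Stra8, Tex101 and Hormad1 had at most 2 counts in any library. Sycp1, which encodes a protein of the synaptonemal complex, is on chromosome 3, as is the enzyme Gstm6. It was opposed to Gstm6, with a Pearson r of -0.93 over the 10 libraries. It had 159 and 55 counts in control, 37 and 134 in KO, 0 and 8 in DKO, 2 and 1 in TKO, and 72 and 65 in QKO. Its lowest 4 libraries were those of DKO and TKO, but its widest gap (1.62 on the log2 scale) put DKO 2 with the high libraries, so that its split was not that of Akr1c19 or Gstm6.

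Akr1c19 had 0.685 and 0.851 nRPKM in control, 0.864 and 0.877 in KO, 0.0631 and 0.0464 in DKO, 0.235 and 0.107 in TKO, and 2.23 and 2.35 in QKO. Distinct levels can be seen, low in DKO and TKO, intermediate in control and KO, and high in QKO, and the gap between the last pair (1.31 on the log2 scale) was almost as wide as the widest (1.41). The low level rested on 4 and 2 counts in DKO and 13 and 5 in TKO, the high one on 116 and 132 in QKO. Means were 0.768 ± 0.117 in control, 0.871 ± 0.00952 in KO, 0.0547 ± 0.0118 in DKO, 0.171 ± 0.0901 in TKO and 2.29 ± 0.0859 in QKO. The log2 fold change was -3.91 ± 0.39 from KO to DKO and 3.68 ± 0.29 from TKO to QKO. QKO exceeded control by 1.58 ± 0.23, and QKO, like DKO and TKO, lacks cJun. It also lacks ETV5, and the deletions and any other difference between the genotypes cannot be told apart. The step from DKO to TKO, 1.61 ± 0.54, was 0.91 without TKO 1.

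Gstm6 showed 0.499 and 0.624 nRPKM in control, 0.524 and 0.403 in KO, 1.5 and 1.10 in DKO, 1.68 and 2.06 in TKO, and 0.726 and 0.634 in QKO. DKO and TKO were the high genotypes, and neither overlapped control, KO or QKO. The means were 0.561 ± 0.0883, 0.463 ± 0.0858, 1.30 ± 0.280, 1.87 ± 0.274 and 0.680 ± 0.0648 in the same order. The log2 fold change was 1.47 ± 0.26 from KO to DKO and -1.46 ± 0.24 from TKO to QKO. Gstm6 and Akr1c19 were split between the same libraries in opposite directions (r = -0.75), but in QKO they differed: Akr1c19 was above control there, and Gstm6 differed from control by 0.27 ± 0.28. Relatives of both enzymes were measured beside them: Gstm1 ranged from 26.4 to 35.9 nRPKM and Gstm5 from 46.9 to 57.7, far above Gstm6, and Akr1c14 from 0.489 to 0.853. Of 11 other glutathione transferases, and of the 2 of 8 other Akr1c genes that could be tested, none was called in any comparison.

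**Figure D2:**
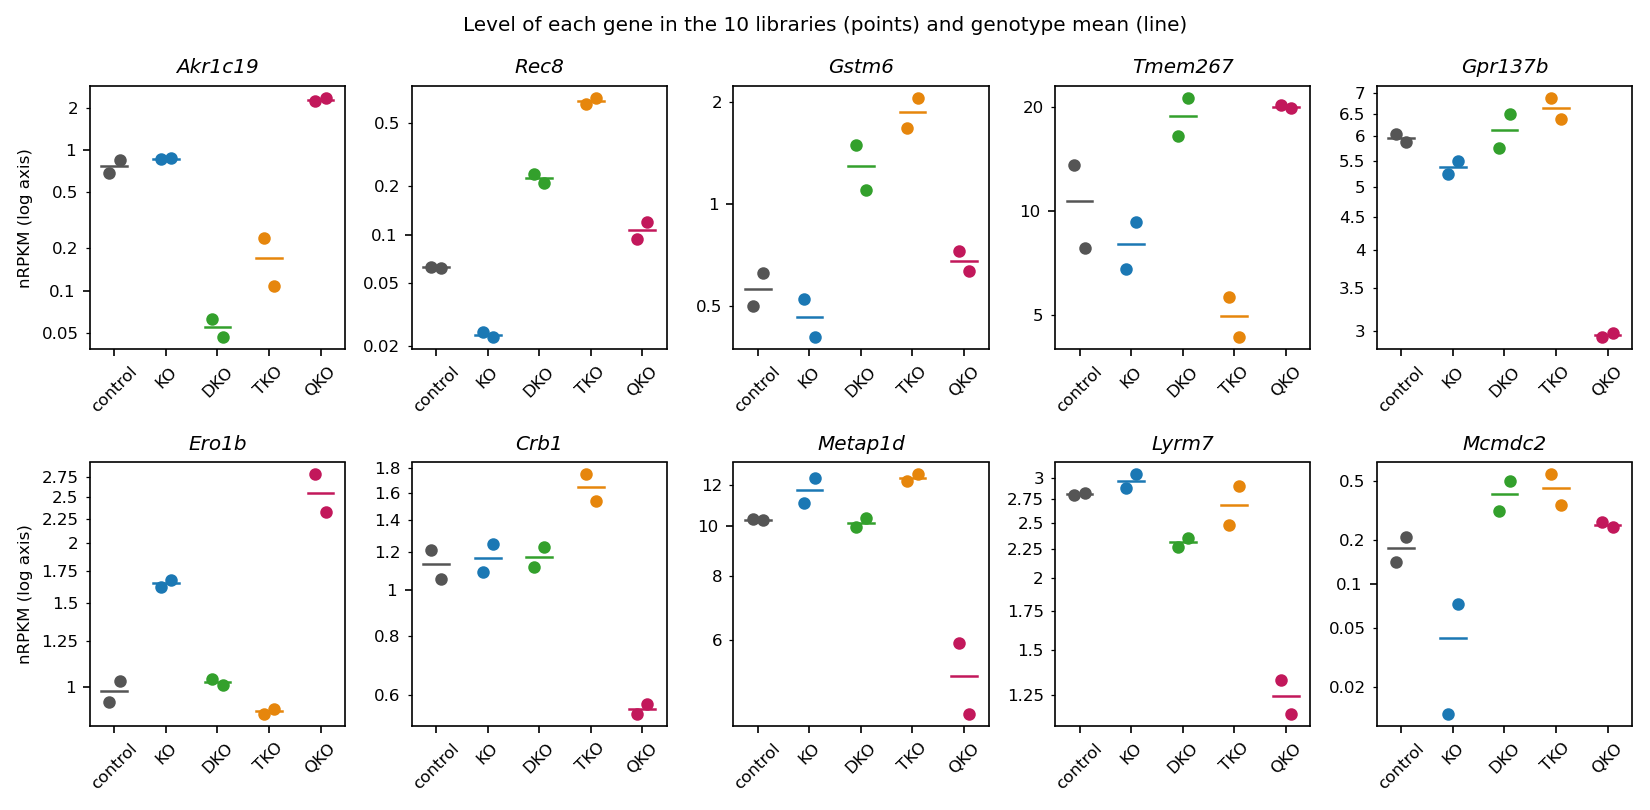
Deposited nRPKM (log axis) of each of the 10 genes by genotype; points are libraries and lines are genotype means of 2 libraries. Akr1c19 is low in DKO and TKO, Gstm6 is high in both, and Gpr137b, Metap1d, Lyrm7 and Crb1 are lowest in QKO.

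Ero1b and Gpr137b lie near each other on chromosome 13, with 2 tested genes between them in RefSeq gene order. Ero1b stood at 0.929 and 1.03 nRPKM in control, 1.62 and 1.68 in KO, 1.04 and 1.01 in DKO, 0.879 and 0.901 in TKO, and 2.79 and 2.32 in QKO. KO and QKO did not overlap the other genotypes, and QKO lay above KO. Means were 0.980 ± 0.0729, 1.65 ± 0.0435, 1.03 ± 0.0194, 0.890 ± 0.0155 and 2.56 ± 0.329. Its log2 fold change was 0.76 ± 0.12 from control to KO, -0.69 ± 0.12 from KO to DKO, and 1.52 ± 0.13 from TKO to QKO. Ero1a, the other oxidase of this pair, ranged only from 4.84 to 5.83 nRPKM. Among the 8 tested genes of oxidative folding in the endoplasmic reticulum, Pdia6, a disulfide isomerase, was the 1 called: it was higher in DKO than in KO by 0.32 ± 0.06 (edgeR, adjusted p = 0.0414), opposite to Ero1b, and lost this call in 7 of the alternative settings. Markers of the pancreas and pituitary, where Ero1b is abundant, summed to between 1.14 and 214 nRPKM. Their peak was Gh at 187 in DKO 1 and 55.6 in QKO 1, and Ins1 had at most 3 counts. Ero1b stood at 1.04 nRPKM in DKO 1 and at 2.79 in QKO 1, its highest library, against 1.01 and 2.32 in the other library of each genotype. The part of pituitary RNA in these levels was not tested.

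Gpr137b had 6.05 and 5.87 nRPKM in control, 5.24 and 5.5 in KO, 5.75 and 6.49 in DKO, 6.87 and 6.37 in TKO, and 2.93 and 2.98 in QKO. The QKO libraries were the only low ones, and their gap to the next library took 67.4% of the whole log2 range. Its log2 fold change from TKO to QKO was -1.17 ± 0.09. Over the 10 libraries Gpr137b and Ero1b were opposed (r = -0.92), but not as mirror images, since Ero1b was also higher in KO, where Gpr137b differed from control by -0.14 ± 0.09.

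Between the 2 genes lies Gpr137b-ps, a transcribed pseudogene related to Gpr137b, next to Ero1b in gene order. It had 0.0434 and 0.0790 nRPKM in control, 2.53 and 2.78 in KO, 0.0600 and 0.0392 in DKO, 0.0305 and 0.109 in TKO, and 4.48 and 4.50 in QKO. The pseudogene was thus low in 6 libraries, with 4 to 12 counts, and reached 353 to 598 counts in KO and QKO, across a gap of 4.36 on the log2 scale. It was not used to choose the 10 genes, although it was entered in a list of relatives with earlier results of these data known. It rose from control to KO by 5.42 ± 0.29 (edgeR quasi-likelihood test, adjusted p = 5.09e-06), fell from KO to DKO (-5.67 ± 0.30, adjusted p = 5.55e-06), and rose from TKO to QKO by 6.05 ± 0.29 (adjusted p = 1.44e-06), while from DKO to TKO its difference was 0.37 ± 0.55 (adjusted p = 0.805). The libraries with a high pseudogene were those with a high Ero1b (r = 0.95).

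Gpr137b and its pseudogene share sequence, which bears on how their reads were counted. Of the 75-base stretches of Gpr137b transcripts in GENCODE M21, 21.4% also occur in the pseudogene, and 22.1% of those of the pseudogene occur in Gpr137b, 1103 stretches in all. Deposited counts are of uniquely aligned reads, and how reads in shared stretches were treated beyond that is not given in the sources used here, so the levels of both are uncertain to this extent. In QKO, Gpr137b stood at 9.53 and 9.63 CPM and the pseudogene stood at 14.4 and 14.4 CPM. The sum of both was 23.9 and 24.0 CPM in QKO, 25.3 and 26.9 in KO, and between 18.9 and 22.5 in control, DKO and TKO. The summed level in QKO was therefore not low, unlike that of Gpr137b alone. In KO the pseudogene reached 8.14 and 8.95 CPM while Gpr137b stayed at the level of its high state. The part of shared reads in either level was not tested. Ero1b shares 7.74% of its 75-base stretches with the gene model Gm18562.

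**Figure D3:**
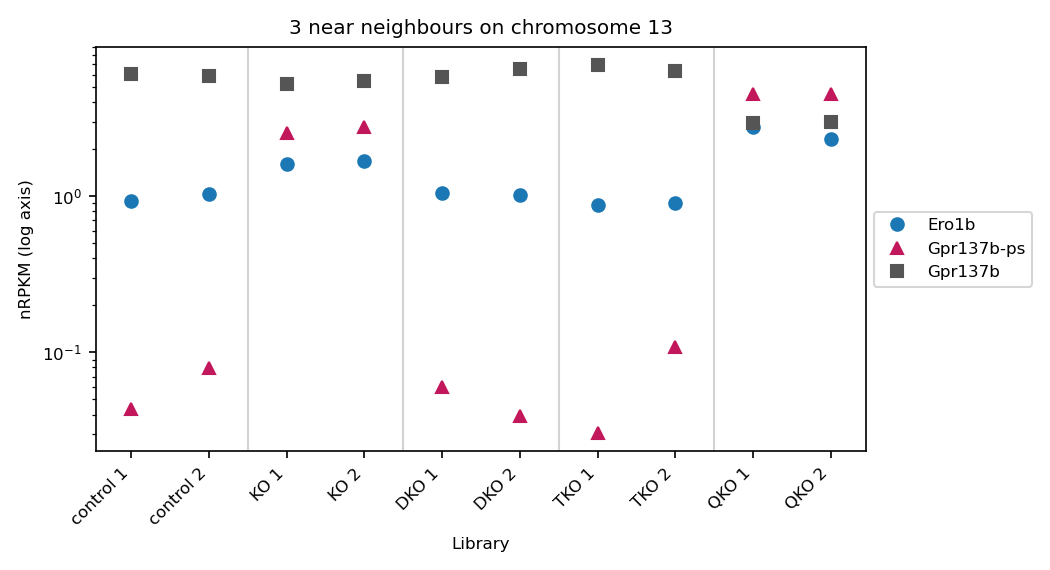
Deposited nRPKM (log axis) of Ero1b, Gpr137b-ps and Gpr137b, near neighbours on chromosome 13, in each of the 10 libraries. The pseudogene is at 2.53 to 4.50 nRPKM in KO and QKO and at or below 0.109 in the other 6 libraries, Ero1b is highest in KO and QKO, and Gpr137b is low in QKO alone.

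**Figure D4:**
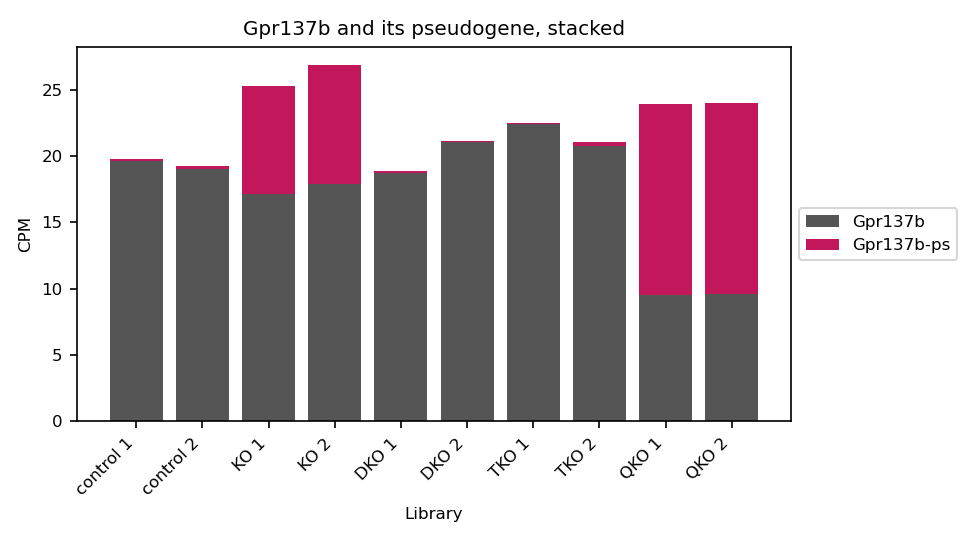
Level in CPM of Gpr137b and Gpr137b-ps stacked for each of the 10 libraries. The stacked total lies between 18.9 and 26.9 CPM in every library, while Gpr137b alone is at 9.53 and 9.63 CPM in QKO.

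Akr1c19 is on chromosome 13 as well, with 20 tested genes between it and Ero1b, and Tmem267 lies on the same chromosome at least 595 tested genes from the other 3, of 631 tested on it. Akr1c19 and Ero1b were both highest in QKO and were correlated (r = 0.77), but in KO only Ero1b left the control level. The 250 bases before the RefSeq start sites of these 2 genes (assembly GRCm38.p6) are shown because both genes share a chromosome and their highest libraries. The window of Akr1c19 is chr13:4233490-4233739 on the plus strand and that of Ero1b is chr13:12565633-12565882 on the plus strand. They are printed 5′ to 3′ along the gene, with capitals marking GGAA, the core of ETS binding sites, and its reverse complement TTCC.
Akr1c19: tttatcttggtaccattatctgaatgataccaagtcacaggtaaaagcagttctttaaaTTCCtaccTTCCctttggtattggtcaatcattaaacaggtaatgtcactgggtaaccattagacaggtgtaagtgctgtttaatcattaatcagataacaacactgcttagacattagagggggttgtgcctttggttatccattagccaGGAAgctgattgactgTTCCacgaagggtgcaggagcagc
Ero1b: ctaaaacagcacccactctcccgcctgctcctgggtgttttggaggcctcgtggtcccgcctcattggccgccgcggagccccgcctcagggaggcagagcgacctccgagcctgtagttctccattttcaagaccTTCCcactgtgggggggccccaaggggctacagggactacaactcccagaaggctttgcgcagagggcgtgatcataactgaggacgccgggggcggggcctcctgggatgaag
The core was found 4 times before Akr1c19 and 1 time before Ero1b, and the windows differ in base composition, with 40.8% and 64.4% G and C against a median of 52.4% over 32851 such windows. Neither window holds the AP-1 motif TGANTCA or the longer ETS motif CCGGAAG, which contains the core.

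The low state in QKO was shared by 4 genes on 4 chromosomes: Gpr137b, described above, Metap1d on chromosome 2, Lyrm7 on chromosome 11 and Crb1 on chromosome 1. Metap1d stood at 10.3 and 10.2 nRPKM in control, 11.1 and 12.4 in KO, 9.93 and 10.3 in DKO, 12.2 and 12.6 in TKO, and 5.92 and 4.31 in QKO. Its means were 10.3 ± 0.0511, 11.7 ± 0.939, 10.1 ± 0.292, 12.4 ± 0.271 and 5.11 ± 1.14. QKO lay below all other libraries, at a log2 fold change of -1.28 ± 0.13 from TKO and -1.01 ± 0.13 from control, and its 2 libraries differed more from each other than those of any other genotype. The cytosolic enzymes Metap1 and Metap2 ranged from 17.7 to 20.9 and from 24.0 to 27.2 nRPKM, and neither was called in any comparison.

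Lyrm7 had 2.80 and 2.82 nRPKM in control, 2.88 and 3.04 in KO, 2.27 and 2.35 in DKO, 2.48 and 2.90 in TKO, and 1.33 and 1.16 in QKO. The QKO libraries were low and the rest lay within a narrow band, with DKO at its lower end. From TKO to QKO the log2 fold change was -1.12 ± 0.13, and from control to QKO -1.18 ± 0.13. Uqcrfs1, the Rieske protein that Lyrm7 serves, ranged from 61.8 to 74.7 nRPKM, and none of the 13 other genes of complex III, its assembly or the LYR family was called. The long noncoding RNA 2610507I01Rik, also on chromosome 11, was the gene most like Lyrm7 (r = 0.98). It stood at 6.58 and 6.20 nRPKM in control, 5.86 and 6.72 in KO, 3.40 and 3.44 in DKO, 6.67 and 6.43 in TKO, and 0.617 and 0.663 in QKO. It thus had a deeper low state in QKO than Lyrm7 and also a lower level in DKO.

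Crb1 had 1.21 and 1.05 nRPKM in control, 1.09 and 1.25 in KO, 1.12 and 1.23 in DKO, 1.75 and 1.54 in TKO, and 0.549 and 0.574 in QKO. Control, KO and DKO overlapped, TKO lay above them and QKO below. Means were 1.13 ± 0.114, 1.17 ± 0.113, 1.17 ± 0.0811, 1.64 ± 0.147 and 0.561 ± 0.0181, and the log2 fold change was 0.49 ± 0.13 from DKO to TKO and -1.56 ± 0.14 from TKO to QKO. The difference of QKO from TKO was larger than that from control, -1.01 ± 0.14, because TKO lay above control. The 7 retina markers summed to between 0.832 and 1.48 nRPKM in all libraries. Crb1 shares chromosome 1 with the targeted Cop1, with 79 tested genes between them, and with Mcmdc2, 634 tested genes away. Crb2, another Crumbs protein, ranged from 1.79 to 2.40 nRPKM and was called in no comparison.

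Metap1d, Lyrm7 and Crb1 were low in the same 2 libraries from 3 chromosomes, so the bases before their RefSeq start sites (GRCm38.p6) are set side by side. The windows are chr2:71453088-71453337 on the plus strand for Metap1d, chr11:54860598-54860847 on the minus strand for Lyrm7 and chr1:139377077-139377326 on the minus strand for Crb1, with GGAA and TTCC again in capitals.
Metap1d: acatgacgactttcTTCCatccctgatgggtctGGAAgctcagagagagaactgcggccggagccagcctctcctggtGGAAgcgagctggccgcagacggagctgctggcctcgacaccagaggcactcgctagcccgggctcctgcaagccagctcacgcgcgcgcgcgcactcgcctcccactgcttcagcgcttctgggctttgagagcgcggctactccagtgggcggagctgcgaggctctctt
Lyrm7: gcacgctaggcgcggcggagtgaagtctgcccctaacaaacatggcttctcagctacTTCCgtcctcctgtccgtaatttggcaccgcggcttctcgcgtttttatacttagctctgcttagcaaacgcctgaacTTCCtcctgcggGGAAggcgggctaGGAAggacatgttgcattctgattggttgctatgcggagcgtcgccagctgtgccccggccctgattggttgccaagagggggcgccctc
Crb1: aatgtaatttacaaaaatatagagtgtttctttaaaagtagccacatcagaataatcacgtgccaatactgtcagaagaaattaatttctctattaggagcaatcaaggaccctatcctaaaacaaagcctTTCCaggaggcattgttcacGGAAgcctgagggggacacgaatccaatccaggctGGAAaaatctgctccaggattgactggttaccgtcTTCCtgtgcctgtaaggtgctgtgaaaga
The ETS core occurred 3 times before Metap1d, 4 times before Lyrm7 and 4 times before Crb1, where the median over all windows was 3 and 93.4% of them held it. The sequences were rich in G and C before Metap1d (65.6%) and Lyrm7 (58.8%) but not before Crb1 (41.6%). RefSeq windows were matched for 8 of the 10 genes, with 11 start sites, and not for Gpr137b and Mcmdc2. On either strand, TGANTCA was in none of the 11 windows (6.75% of all windows held it), and CCGGAAG was in none (6.91% of all). A match or its lack describes these letters only and says nothing of what binds there.

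Tmem267 had 13.6 and 7.83 nRPKM in control, 6.80 and 9.30 in KO, 16.4 and 21.2 in DKO, 5.66 and 4.32 in TKO, and 20.2 and 19.8 in QKO. It was the 1 gene of the 10 whose level alternated, with DKO and QKO high and KO and TKO low, and its control libraries differed by a factor of 1.73. Control 1, the higher of its pair, and DKO 1, the lower of its pair, were the libraries with high Xist, whose part in these levels was not tested. Means were 10.7 ± 4.07, 8.05 ± 1.76, 18.8 ± 3.38, 4.99 ± 0.948 and 20.01 ± 0.304. The log2 fold change was 1.22 ± 0.23 from KO to DKO, -1.90 ± 0.25 from DKO to TKO, and 1.99 ± 0.25 from TKO to QKO. The difference of QKO from control was 0.90 ± 0.23, 1.36 without control 1 and 0.56 without control 2, so the control library decided its size. Its neighbour Nnt, a mitochondrial transhydrogenase known for a strain-specific deletion, ranged from 4.79 to 7.33 nRPKM. That level is counted over the whole gene and does not check such a deletion, and a strain origin was not tested. Exons of 2 gene models on the opposite strand, 3110070M22Rik and Gm48265, overlap those of Tmem267 by 162 and 181 of 5419 bases. 3110070M22Rik stood at 0.288 to 2.04 nRPKM (r = 0.60 with Tmem267), and its part in the level of Tmem267 was not tested.

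**Figure D5:**
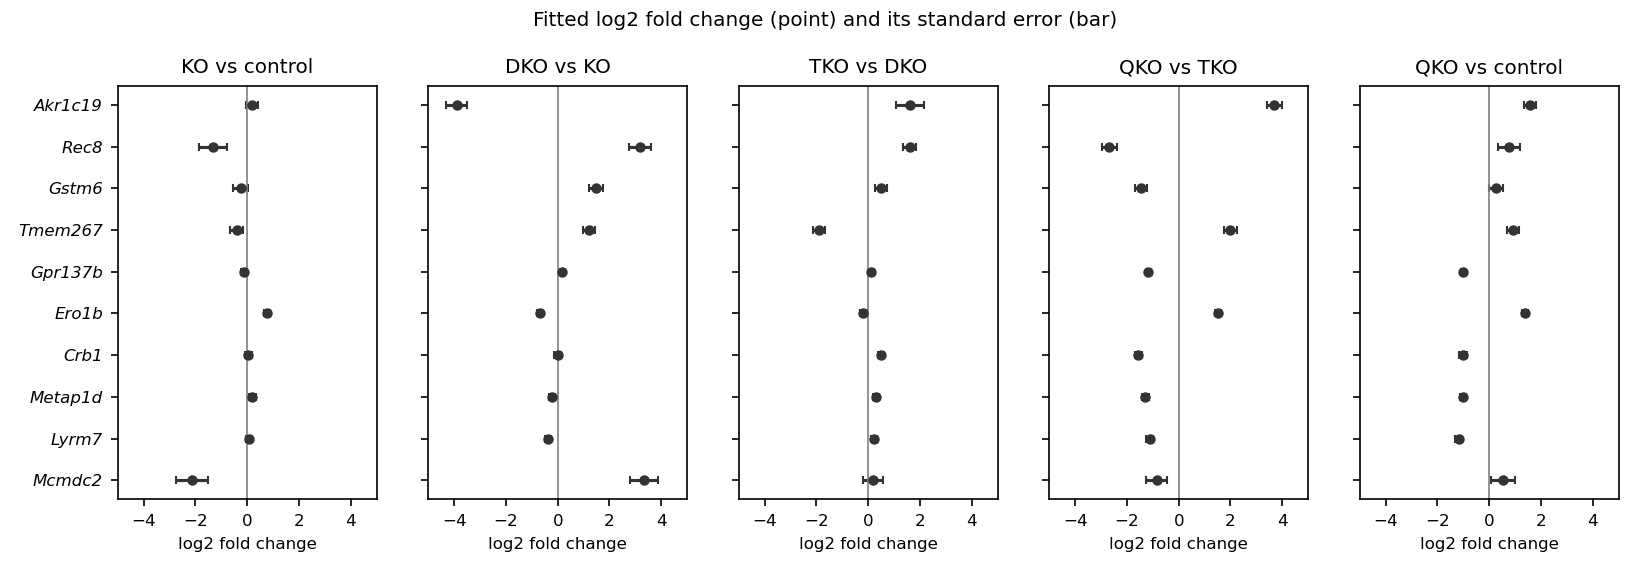
Fitted log2 fold change (points) of each of the 10 genes in the 5 comparisons, with standard errors as bars, from the fit over all 10 libraries. From TKO to QKO the points of Gpr137b, Metap1d, Lyrm7 and Crb1 lie between -1.56 and -1.12, and those of Akr1c19 and Tmem267 at 3.68 and 1.99.

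Counted by comparison, the 10 genes were called at an adjusted p under 0.05 (edgeR quasi-likelihood test) as follows, each beside the share of all tested genes called there. From control to KO 1 gene, Ero1b, was called (background 0.734%). From KO to DKO 6 genes were called, 4 higher and 2 lower (0.568%). From DKO to TKO 1 gene, Tmem267, was called as lower (0.0911%). From TKO to QKO 9 genes were called, 3 higher and 6 lower (0.289%), and from control to QKO 6 genes, 2 higher and 4 lower (0.236%). Because these differences chose the genes, nothing is read from the counts. The median log2 fold change of the 10 genes was -0.04, 0.09, 0.26, -1.15 and 0.40 in these comparisons, against 0.01, -0.00, 0.00, -0.00 and 0.00 over all genes tested. The median of 0.40 from control to QKO came with 4 of 6 called genes lower, so these medians describe no common shift. Each of the 10 genes was called in at least 1 of the 5 comparisons, against 1.37% of all genes tested. Successive comparisons share libraries: KO, DKO and TKO each enter 2 of the 4 steps, so a rise followed by a fall of 1 gene is in part the same measurement read from both sides.

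The counts depended on single libraries in some comparisons, and since the genes were chosen on these libraries, a call that was kept on refitting them is no support for it. With 1 library left out at a time, between 1 and 6 genes were called from KO to DKO, where Akr1c19 was called in every fit. From TKO to QKO the number was between 7 and 9, and Akr1c19, Rec8, Ero1b, Gpr137b, Metap1d, Lyrm7 and Crb1 were called in all 15 alternatives run. Ero1b, Gpr137b and Lyrm7 were called in all alternatives from control to QKO. Without control 1 and DKO 1, the libraries with high Xist, 0 genes were called from control to KO and 3 from KO to DKO.

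Relatives and partners of the 10 genes were followed in 9 lists with 77 tested genes. From control to KO 1 was called higher and 0 lower, from KO to DKO 1 higher and 1 lower, from DKO to TKO 0, from TKO to QKO 2 higher and 0 lower, and from control to QKO 1 higher and 0 lower. At an unadjusted p under 0.05 there were 9, 16, 6, 4 and 4 genes, or 11.7, 20.8, 7.79, 5.19 and 5.19% of the list, against 10.4, 13.8, 11.9, 5.78 and 6.89% of all genes tested. All but 2 of the calls at an adjusted p under 0.05 were of Gpr137b-ps. The others were Pdia6 and Mcm6, a subunit of the replicative helicase, which was higher in QKO than in TKO by 0.45 ± 0.06 (edgeR, adjusted p = 0.00884) and lost this call without TKO 1 or without TKO 2. Mcm8 and Mcm9, the helicase subunits that act in recombination as Mcmdc2 does, ranged from 1.97 to 2.23 and from 1.94 to 2.60 nRPKM. In the cohesin list the ubiquitous kleisin Rad21 ranged from 63.8 to 71.4 nRPKM, the meiotic kleisin Rad21l from 0.126 to 0.372 and the meiotic subunit Stag3 from 1.30 to 2.67, and none of the 12 genes was called. Gpr137 and Gpr137c ranged from 14.2 to 16.5 and from 8.37 to 11.03 nRPKM.

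The nearest neighbours in RefSeq gene order, 5 tested genes on either side, were asked for the same pattern, defined as an absolute r of at least 0.9 over the 10 libraries and a log2 range of at least 1. Such a neighbour was found in 4 cases, all on chromosome 13: Marcksl1-ps4 beside Akr1c19, Gpr137b-ps and Gpr137b beside Ero1b, and Ero1b beside Gpr137b. The pair of Ero1b and Gpr137b is counted from both sides, and both genes were chosen from these same libraries. Over all pairs of the 10 genes with tested genes, 0.0418% were alike. Since the 4 cases are not independent, nothing is read from them against this share. Marcksl1-ps4 is not an independent measure, because its 291 exon bases lie wholly within exons of Akr1c19 on the same strand and all 217 of its 75-base stretches occur there. For Rec8, Gstm6, Tmem267, Crb1, Metap1d, Lyrm7 and Mcmdc2 no neighbour was alike. The median absolute r of the neighbours was 0.481 for Akr1c19, with Marcksl1-ps4 among them, against 0.260 over all genes. It was 0.386 against 0.247 for Rec8, 0.384 against 0.242 for Mcmdc2, and 0.157 against 0.210 for Crb1. For Gpr137b it was 0.386 against 0.211 and for Ero1b 0.335 against 0.220. Gstm6 had 0.291 against 0.254 and Lyrm7 0.276 against 0.242. Tmem267 had 0.255 against 0.264 and Metap1d 0.250 against 0.255. Of the neighbours called in a comparison, Cybrd1, a ferric reductase beside Metap1d, was lower in DKO than in KO (-0.55 ± 0.09, edgeR adjusted p = 0.0163) and did not share the pattern of Metap1d (r = 0.09).

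The 10 genes fell into sets when compared with each other. Gpr137b and Crb1 (r = 0.96), Metap1d and Lyrm7 (0.96), Crb1 and Metap1d (0.93) and Gpr137b and Metap1d (0.92) were alike, as were Rec8 and Gstm6 (0.96), and Ero1b was opposed to Crb1 (-0.86). These correlations are over 10 libraries that share depth, genotype and any batch, and describe these libraries only. Since the 10 genes were chosen for steps between genotypes in these same libraries, nothing is read from the likeness among them. Outside the 10 genes, Rec8 and Gstm6 were most like Hjurp, a chaperone of centromeric histone (r = 0.97 and 0.94), which ranged from 7.06 nRPKM in KO 1 to 19.5 in TKO 1. Gpr137b was opposed to Serpina3n (-0.96), a serine protease inhibitor that stood at 2.74 to 3.22 nRPKM in QKO and at 0.855 to 1.21 elsewhere. Crb1 was opposed to Serpina3m (-0.92), which had only 0 to 16 counts over the libraries. Metap1d was opposed to Scg5 (-0.96), a secretory granule chaperone also on chromosome 2, at 98.4 and 134 nRPKM in QKO and 60.5 to 72.5 elsewhere. The gene most like Ero1b with a name was Gpr137b-ps, followed by Sugct, also on chromosome 13 (0.92). Tmem267 was opposed to Isg15 (-0.92) and Fbxw10 (-0.90), and Mcmdc2 to Myh15 (-0.93). Counts were low for these genes too, at 31 to 83 for Isg15, 12 to 40 for Fbxw10 and 12 to 41 for Myh15.

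Among the 215 genes with a gap of at least 1, the 5 widest gaps belonged to the sex-linked Xist (9.51), Ddx3y (9.28), Uty (8.91), Eif2s3y (8.31) and Tsix (7.98), which separated control 1 and DKO 1 from the rest. None of the 10 genes was split in that way. The split of Gstm6, high in DKO and TKO, was shared by 5 genes with such a gap, of which 4 had a name, 2410018L13Rik, Gm5784, 5730507C01Rik and 3110053B16Rik. All 4 are on chromosome 12, between 69 and 81 tested genes from the targeted Etv1, while Gstm6 is on chromosome 3. Chromosome 12 held 3.38% of all genes tested. It held 24.1% of the 29 genes with such a gap and no genotype split, these 4 among them. Gstm6 itself had a gap of 0.57, below that limit. Whether the place near Etv1 has a part in the levels of these genes was not tested.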

How the data were processed

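Polyadenylated RNA of embryonic brain was measured in 10 libraries, grouped by the genotype in the labels. Reads were aligned with GSNAP to NCBIM37, per the submitters' processing notes. Per the file headers, the authors' count is of uniquely aligned reads in a gene model, and their second value, nRPKM, is an RPKM corrected with library size factors. Neither annotation release nor strand handling is given in the sources used here.

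Entrez identifiers were named through RefSeq of GRCm38.p6 (24998 of 28059, 89.1%), used for names and gene order. Counts were tested with edgeR 4.0.16 (R 4.3.3; quasi-likelihood test, filterByExpr, TMM, 5 group means over 10 libraries, 5 residual degrees of freedom, Benjamini-Hochberg over 18671 genes, threshold 0.05), and the test was checked on simulated data. Log2 CPM used a prior count of 2. Exon overlap and shared 75-base stretches came from GENCODE M21, and promoters from RefSeq. Both libraries of a genotype differed by more than sampling noise (chi-square over genes, 7.51 to 19.5 for each degree of freedom).

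The members and lists were chosen with earlier results of these data known. Genes named besides the 10 and the targeted genes were, for each of the 10, those among the 3 most alike over the libraries that had a symbol, up to 2 called neighbours, and the called or most abundant relatives of its list, and the 5 genes with the widest gaps. Some genes that this rule would name are not reported here. Sycp1, 2610507I01Rik, Nnt, 3110070M22Rik and the genes with the split of Gstm6 were given more room, or named, after their values were seen. Alternatives were DESeq2 1.42.0 or its size factors, no filter, fewer libraries, each library left out, other prior counts (0.5 and 5), log2 of nRPKM + 0.1 and 10 neighbours on a side.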

Additional observations from a re-analysis of the deposited data

How the results depend on the processing

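No paired analysis was possible because the labels give no replicate numbers shared between genotypes. The number of the 10 genes called changed as follows. From control to KO it was 1, and became 2 with no filter on low counts and 0 without the libraries with high Xist. From KO to DKO it was 6, and became 2 when only the libraries compared were fitted and 3 without the libraries with high Xist. From DKO to TKO it was 1, and became 2 with no filter and 2 with only the libraries compared. From control to QKO it was 6, and became 3 with only the libraries compared. Related genes called, 3 in all, became 5 with no filter, alternatives for these being chosen after seeing the data. Leaving out each library in turn gave 0 to 1 genes from control to KO, 1 to 6 from KO to DKO, 0 to 2 from DKO to TKO, 7 to 9 from TKO to QKO, 3 to 6 from control to QKO, 2 to 4 related genes, and 2 to 4 genes with a gap of at least 1. The cause was not tested beyond the fewer samples each of these fits holds. Of 747 alternative values of the 50 log2 fold changes, 717 stayed within 1 SE, 30 moved further and 0 changed sign where called. The count of 8 genes with no genotype split and that of 4 alike neighbours were the same under the other scales, prior counts and numbers of neighbours run for each. The split itself changed for some genes when 1 library was left out: Mcmdc2 without KO 1, Gstm6 and Tmem267 without DKO 1, Tmem267 without TKO 1, Akr1c19 without TKO 2, and Ero1b without QKO 2, while leaving out any other library changed the split of 0 genes. Depth limits Rec8, Mcmdc2 and Akr1c19, whose lowest library held 2 counts each.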
